A study of Mus musculus with 9 samples.

Results

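The genes examined here were those of the fast and slow receptors for gamma-aminobutyric acid (GABA), glycine, acetylcholine, noradrenaline, serotonin, dopamine, histamine and the opioid peptides. They were the protein-coding genes of GENCODE vM21 (build mm10, the same assembly as GRCm38) whose symbols name a GABA-A, GABA-A rho, GABA-B, glycine, muscarinic, nicotinic, adrenergic, serotonin, dopamine or histamine receptor, and the 4 opioid receptors. The rule gave 83 of 21951 protein-coding genes, and a differentially methylated region (DMR) was counted for a gene when it overlapped the gene body or the 1000 bp upstream by at least 1 bp. Of the 12949 DMRs of the deposited table, 28 met this rule, in 18 of the 83 receptor genes (21.7%), and 19.3% of all protein-coding genes held a DMR by the same rule. The share in receptor genes was close to that background. DMRs with the higher mean in MMS were found in 15 receptor genes (18.1%, against 13.6% of protein-coding genes) and DMRs with the higher mean in control in 8 (9.64%, against 9.13%).

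The mice were C57/Bl6 males, and the hypothalamus was collected at postnatal day 6. In modified maternal separation (MMS), pups were kept apart from the dam for 1.5 h on each of days 4 to 6 and repeatedly turned onto their backs, and tissue was taken straight after the last session. Control pups were their littermates. Of the 4 males used per litter, 2 went to each group, and DNA of 10 animals per group was combined into 3 pools. Methylated DNA immunoprecipitation (meDIP), in which an antibody enriches fragments carrying methylated cytosine, gave 3 control and 3 MMS libraries, with 1 input of each group and 1 IgG control. Because each library holds several animals, the spread between single animals was not measured. The reads over a region rise both with the methylation of its CpG sites and with their number. In whole hypothalamus a change in the mix of cell types and a change of methylation within cells cannot be told apart.

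The table lists the log2 mean of normalised reads of each group and holds no values per library. No SD, interval or test between control and MMS could therefore be computed here, and "higher" below describes the 2 group means of a region that the authors listed as differential. Differences are MMS minus control on the log2 scale. The column headed untreated was taken as control and the column headed treated as MMS, which the table itself does not state and on which every direction rests. Group means have a lowest value, -0.17 in control (0.889 normalised reads) and -0.24 in MMS. How large a difference is when 1 group is at this value depends on how the value was set. The table gives no read total per library.

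Receptors of these families set how hypothalamic neurons respond to their main inhibitory and modulatory inputs. GABA-A, rho, glycine, nicotinic and 5-HT3 receptors are pentameric channels opened directly by the transmitter, whereas GABA-B, muscarinic, adrenergic, dopamine, histamine, opioid and the remaining serotonin receptors act through G proteins. Methylation in introns, where most of a long gene lies, is common in mouse brain, and CpG-rich promoters of expressed genes are mostly free of it.

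The sequence of 5 regions is shown, on the plus strand of GRCm38 in lower case with each CpG, the target of DNA methylation, in capitals. The first pair are the 300 bases at the centre of the DMRs with the largest difference in either direction, in Hrh2 (chr13:54208179-54208478, 5 CpG sites) and Htr2a (chr14:74679936-74680235, 4 CpG sites). The Gabbr2 region (chr4:46750760-46751028, 269 bases) is the whole DMR with the most CpG per length, with 11 sites. The Gabra4 sequence (chr5:71651753-71652052) is the centre of the DMR with the highest mean over all libraries and holds 1 CpG. The Gabrr1 sequence (chr4:33132306-33132520) is the 215 bases before the gene start, from RefSeq's promoter table for GRCm38.p6, and was chosen after its values were seen because it lies whole inside a DMR.
Hrh2: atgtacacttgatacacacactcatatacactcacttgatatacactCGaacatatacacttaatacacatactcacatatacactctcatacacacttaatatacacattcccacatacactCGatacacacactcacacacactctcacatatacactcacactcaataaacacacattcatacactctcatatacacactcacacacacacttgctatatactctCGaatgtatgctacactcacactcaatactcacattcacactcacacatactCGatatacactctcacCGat
Htr2a: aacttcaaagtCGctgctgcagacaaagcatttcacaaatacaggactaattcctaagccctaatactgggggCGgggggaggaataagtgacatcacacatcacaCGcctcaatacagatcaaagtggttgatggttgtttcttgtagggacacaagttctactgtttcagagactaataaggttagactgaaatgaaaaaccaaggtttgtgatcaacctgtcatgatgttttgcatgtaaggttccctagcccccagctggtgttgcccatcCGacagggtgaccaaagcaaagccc
Gabbr2: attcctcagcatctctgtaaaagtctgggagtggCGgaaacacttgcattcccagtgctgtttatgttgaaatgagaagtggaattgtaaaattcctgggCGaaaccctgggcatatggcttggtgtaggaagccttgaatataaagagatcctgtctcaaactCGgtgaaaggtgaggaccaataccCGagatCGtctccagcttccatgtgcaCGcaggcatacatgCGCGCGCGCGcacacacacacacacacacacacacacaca
Gabra4: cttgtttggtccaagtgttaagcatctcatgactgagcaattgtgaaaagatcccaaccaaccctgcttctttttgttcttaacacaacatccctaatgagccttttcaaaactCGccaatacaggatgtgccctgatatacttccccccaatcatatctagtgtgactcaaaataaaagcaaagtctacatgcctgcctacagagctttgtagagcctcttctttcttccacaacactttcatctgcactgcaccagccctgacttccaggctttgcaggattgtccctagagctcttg
Gabrr1: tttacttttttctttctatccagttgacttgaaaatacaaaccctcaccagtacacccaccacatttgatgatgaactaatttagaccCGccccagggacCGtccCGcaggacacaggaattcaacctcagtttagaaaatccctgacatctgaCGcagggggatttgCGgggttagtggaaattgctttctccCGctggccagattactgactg
The sequences differ in kind. The Hrh2 window is a run of short repeated units with its CpG sites spread along it, the Gabbr2 region ends in an alternating CpG stretch followed by a simple repeat, and the Htr2a and Gabra4 windows come from DMRs of which 16.8% and 15.2% were repeat.

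Across the 28 DMRs, 19 had the higher mean in MMS and 9 in control. The share higher in MMS was 67.9% (95% Wilson interval 49.3 to 82.1, counting error only), and 62.6% of all DMRs in the table were higher in MMS. In the receptor DMRs higher in MMS the median difference was 3.51, from 1.10 to 5.55, against 3.43 in the table. In those higher in control it was -1.64, from -2.87 to -1.50, against -1.73 in the table. The 2 directions differed in level as well as in size. Where MMS was higher, the medians of the group means were 14.8 normalised reads in MMS and 0.889 in control, and where control was higher they were 33.4 in control and 9.85 in MMS. The whole table showed the same pattern, with 17.0 in MMS and 1.15 in control where MMS was higher. Where control was higher, its values were 35.0 in control and 10.1 in MMS. In 13 of the 19 MMS-higher DMRs (68.4%, Wilson interval 46.0 to 84.6) control was within 0.5 of its lowest value on the log2 scale, against 52.7% in the table. MMS was at its lowest value in 0 of the 9 control-higher DMRs, against 4.60% in the table. Among the 15 receptor DMRs whose lower group was above its lowest value, 6 were higher in MMS and 9 in control, a share in MMS of 40.0% with a Wilson interval of 19.8 to 64.3. The same share was 45.3% among the 8452 such DMRs of the table. Leaving out regions at the lowest value could take away only MMS-higher DMRs here, so the lower share follows from that choice.

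**Figure D1:**
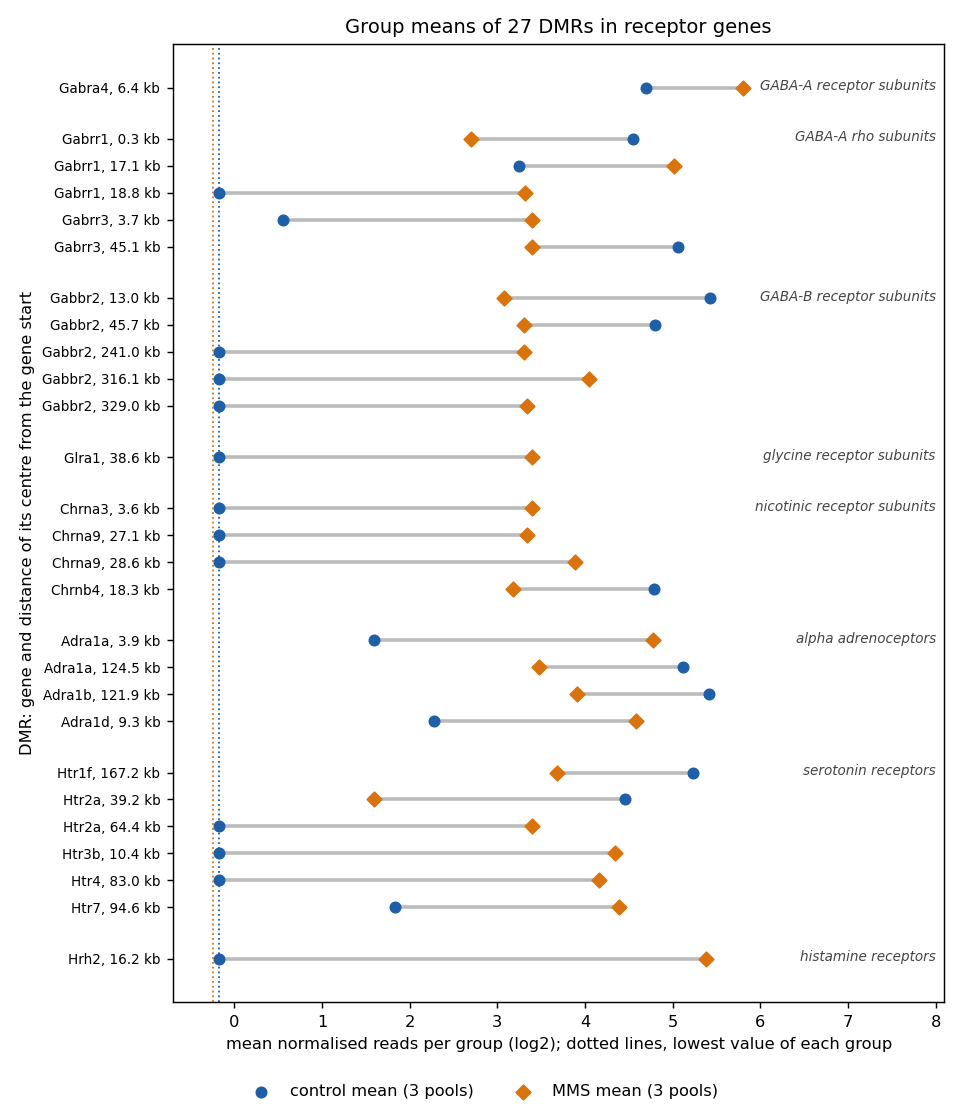
Control mean (circles) and MMS mean (diamonds) of normalised reads, on the log2 scale, for 27 of the 28 DMRs in receptor genes, ordered by receptor family and by distance of the DMR centre from the gene start. Dotted lines mark the lowest value of each group, and 12 of the 18 plotted DMRs higher in MMS have their control mean on the control line.

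The GABA-A receptor subunits, which form the main fast inhibitory receptor of the brain, held few DMRs for their length. Among the 16 genes for alpha, beta, gamma, delta, epsilon, pi and theta subunits, 2 held 1 DMR each (12.5%, against 19.3% of protein-coding genes). Both DMRs were higher in MMS, as were 62.6% of all DMRs in the table. The family held 0.775 DMRs per Mb over 2.58 Mb of gene windows. On the autosomes alone it held 0.863, against 6.40 over all autosomal protein-coding genes. Apart from Gabrd and Gabrp, the genes for these subunits lie in clusters and are not independent, and the low density was not tested. The 587 kb cluster of Gabre, Gabra3 and Gabrq on chromosome X held 0 DMRs. The 1398 kb cluster of Gabrg1, Gabra2, Gabra4 and Gabrb1 on chromosome 5 held 1.

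The DMR of Gabra4 (ENSMUSG00000029211.11), the alpha 4 subunit, lay at chr5:71651079-71652726 in intron 2, 6406 bp from the gene start, and at 1648 bp was the widest of the 28. Its control mean was 4.70 and its MMS mean 5.80, or 26.0 and 55.7 normalised reads, a difference of 1.10. It had the highest mean over all libraries of the receptor DMRs (5.35) and the smallest difference of those higher in MMS. A share of 0.802% of the table's MMS-higher DMRs had a smaller one. Gabra4 and Gabrb1 are arranged head to head, and the same region lay 5387 bp upstream of Gabrb1, the beta 1 subunit, which held no DMR within its 491 kb. Gabrd, the delta subunit of extrasynaptic receptors, held none, and the nearest DMR lay 6722 bp past its end (chr4:155377877-155378258), with a control mean of 4.67, an MMS mean of 2.79 and a difference of -1.88.

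The rho subunits, which form GABA channels that are insensitive to bicuculline, held 5 DMRs in 0.124 Mb of gene windows (40.3 per Mb), against 6.14 per Mb over all protein-coding genes. They lay in 2 of 3 genes, too few to rank the family, and 19.3% of protein-coding genes held a DMR. Gabrr1 (ENSMUSG00000028280.9), the rho 1 subunit, held 3 of them in 31.1 kb. The first, at chr4:33132256-33133342, was the only one of the 28 that spanned a transcript start, covered exon 1 (122 coding and 133 untranslated bases) and reached into intron 1. Its mean was 4.55 in control and 2.70 in MMS, or 23.4 and 6.50 normalised reads, a difference of -1.85 over 20 CpG sites, including the 6 printed above. The other two lay further in and were higher in MMS. At chr4:33149031-33150154 in intron 3, 17071 bp from the start, the control mean was 3.25 and the MMS mean 5.01, a difference of 1.76. At chr4:33151143-33151415, in intron 3 and touching 47 coding bases of exon 4, control was at -0.17 and MMS at 3.32, a difference of 3.49, and 57.5% of this region was annotated as repeat. Gabrr2, its neighbour in the 101 kb cluster, held none, but a further region between the genes (chr4:33117354-33118322) had a control mean of 5.32 and an MMS mean of 3.12, a difference of -2.20. In Gabrr3, the rho 3 subunit, the order was the reverse of that in Gabrr1. The DMR at chr16:59410895-59411262 in intron 1, 3746 bp from the start, had a control mean of 0.55 and an MMS mean of 3.40, a difference of 2.85, whereas that at chr16:59452315-59452518 in intron 8 had a control mean of 5.06 and an MMS mean of 3.39, a difference of -1.67. These 2 genes thus held both directions each, without a shared order along the gene.

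Gabbr2 (ENSMUSG00000039809.10) encodes the subunit of the GABA-B receptor that couples to G proteins. With 5 DMRs over 330 kb it held the most of the 83 genes. It was 1 of 2 genes of its family with a DMR, against 19.3% of protein-coding genes and 79.9% of those above 300 kb. The family held 13.9 DMRs per Mb, against 6.14 over all protein-coding genes. The 5 DMRs separated by direction along the gene, a pattern of few regions that was not tested. Both DMRs in intron 1 were higher in control. At chr4:46978702-46979051, 12997 bp from the start, the mean was 5.43 in control and 3.08 in MMS, a difference of -2.35. At chr4:46945636-46946769, 45671 bp from the start, it was 4.80 in control and 3.30 in MMS, a difference of -1.50. All 3 distal DMRs were higher in MMS, with control at -0.17 in each. The MMS mean was 3.30 at chr4:46750760-46751028 in intron 7, the CpG-dense region printed above (4.09 CpG per 100 bp), a difference of 3.47. It was 4.04 at chr4:46675532-46675915 in intron 16, a difference of 4.21. It was 3.34 at chr4:46662469-46663240, which lay whole within the 3′ UTR of exon 19, the last exon, and gave a difference of 3.51 over 772 bp. Gabbr1, the subunit that binds GABA, held none, and the DMR nearest to it was 187448 bp away.

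Of the 5 glycine receptor genes, Glra1, the alpha 1 subunit of the adult spinal and brainstem receptor, held 1 DMR, which is 20.0% of the family against 19.3% of protein-coding genes and 1.73 DMRs per Mb against 6.14. At chr11:55569486-55569772 in intron 2, 38569 bp from the start, control was at -0.17 and MMS at 3.40, a difference of 3.57. Glra2, Glra3, Glra4 and Glrb held none. The value per Mb includes Glra2 and Glra4, which lie on chromosome X, where protein-coding gene windows held 0.938 DMRs per Mb.

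**Figure D2:**
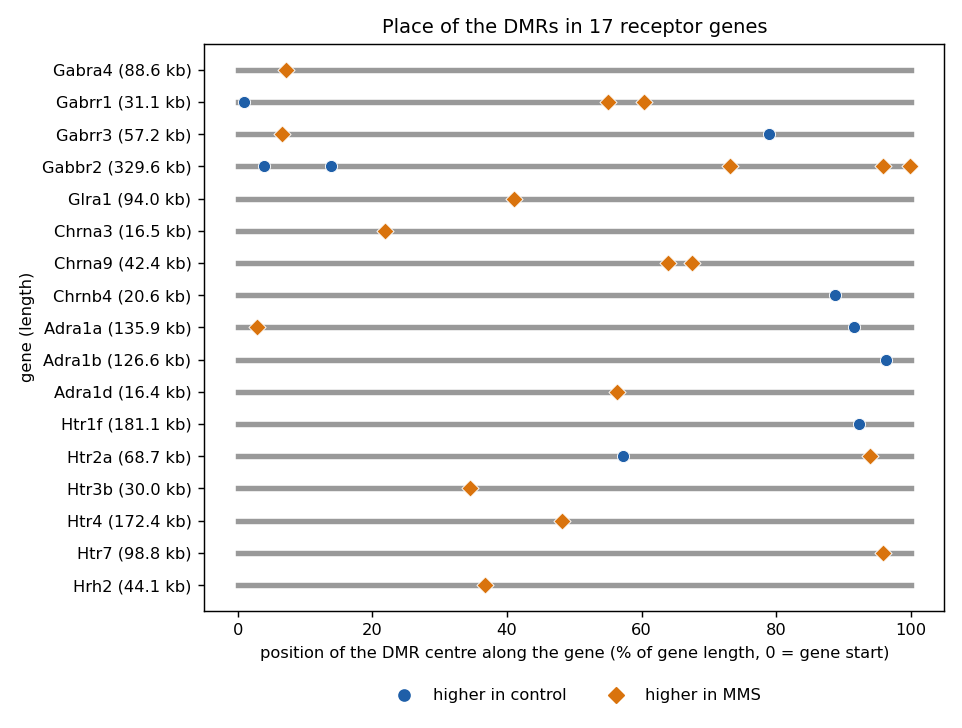
Centre of each DMR along 17 of the 18 receptor genes that held one, as a percentage of gene length from the gene start, with circles for DMRs higher in control and diamonds for DMRs higher in MMS. In Gabbr2 both control-higher DMRs lie nearest the start and the 3 MMS-higher DMRs lie beyond 73.1% of the gene, which was not tested.

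Among the receptors for acetylcholine, DMRs were found in nicotinic and not in muscarinic genes. The 16 nicotinic subunit genes held 4 DMRs in 3 genes (18.75%, against 19.3% of protein-coding genes), or 10.1 per Mb. The 5 muscarinic genes held 0 over 0.654 Mb, and all protein-coding genes held 6.14 per Mb. Chrm3, at 485 kb the longest muscarinic gene, was 185711 bp from the nearest DMR. For Chrm5 a DMR lay 8442 bp upstream (chr2:112489211-112489461), with a control mean of 0.77 and an MMS mean of 3.77, and by RefSeq's longer gene model this region was inside Chrm5. The difference between nicotinic and muscarinic genes was not tested.

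Chrna3 and Chrnb4, the alpha 3 and beta 4 subunits that together form the ganglionic receptor and also occur in the habenula, lie beside Chrna5 in a 67.9 kb cluster on chromosome 9. Their DMRs were of opposite direction. In Chrna3 the region at chr9:55022895-55023049 in intron 3, the narrowest of the 28 at 155 bp with 1 CpG, was at -0.17 in control and 3.40 in MMS, a difference of 3.57. In Chrnb4 the region at chr9:55030156-55030795, at the end of intron 5 and over 90 coding bases of exon 6, was at 4.79 in control and 3.18 in MMS, a difference of -1.61, and it also overlapped the antisense gene Gm47877. Chrna9, a subunit best known from cochlear hair cells, held 2 DMRs, both higher in MMS from a control mean of -0.17. Both lay within the gene, inside other coding transcripts but upstream of the longest coding transcript. At chr5:65961794-65962202, 5126 bp before that transcript, the MMS mean was 3.34 and the difference 3.51. At chr5:65963148-65963949, 3576 bp before it, the MMS mean was 3.89 and the difference 4.06, and this region also overlapped the separately annotated gene Gm43771. The first of them was 57.2% repeat, and BLAST found 3 copies elsewhere in the genome of up to 114 bp. Chrna4, the alpha 4 subunit of the main brain nicotinic receptor, held no DMR by the rule, but one lay 2110 bp upstream (chr2:181045656-181046023), the closest to any receptor gene without a DMR. Its control mean was 1.83 and its MMS mean 4.18, a difference of 2.35. Chrna7, the other main brain subunit, held none.

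All 3 alpha 1 adrenoceptor genes held a DMR, while the 3 alpha 2 and 3 beta adrenoceptor genes held 0. The groups differed in gene length, and this contrast was not tested. Adra1a and Adra1b are 136 kb and 127 kb long, in a class in which 57.4% of protein-coding genes held a DMR, and Adra1d is 16.4 kb long. The alpha 2 genes are all under 10 kb, where 3.57% did, and the beta genes under 30 kb, where 13.2% did from 10 kb upwards. The alpha 1 receptors couple to Gq and mediate excitatory effects of noradrenaline on hypothalamic neurons. Adra1a held 1 in each direction. Near its start, at chr14:66638823-66639439 in intron 2, the mean was 1.59 in control and 4.78 in MMS, a difference of 3.19. Near its end, at chr14:66759636-66759840, it was 5.12 in control and 3.48 in MMS, a difference of -1.64, and this region lay 26409 bp past the longest coding transcript, inside another coding one. The Adra1b region at chr11:43778608-43780000 in intron 4, 121906 bp from the start, held 15 CpG sites and had a mean of 5.42 in control and 3.91 in MMS, a difference of -1.51. The Adra1d region at chr2:131552893-131553163 in intron 1 had a mean of 2.28 in control and 4.58 in MMS, a difference of 2.30. The adrenoceptor DMRs were therefore divided between the directions, 2 and 2, and in none of the 4 was a group at its lowest value. 

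The serotonin receptors held 6 DMRs in 5 of 14 genes (35.7%, against 19.3% of protein-coding genes), or 6.66 per Mb against 6.14. The region in Htr2a (ENSMUSG00000034997.5), the Gq-coupled 5-HT2A receptor, at chr14:74679563-74680608 in intron 2 had the largest difference of the 9 control-higher DMRs. Its mean was 4.46 in control and 1.59 in MMS, or 22.0 and 3.01 normalised reads, a difference of -2.87 over 14 CpG sites, larger than that of 86.8% of the table's control-higher DMRs. A second Htr2a region, at chr14:74705149-74705417 further along the same intron, was at -0.17 in control and 3.40 in MMS, a difference of 3.57. In Htr1f, a Gi-coupled receptor, the region at chr16:64938454-64938923 in intron 2 was at 5.23 in control and 3.68 in MMS, a difference of -1.55. The other 3 genes with a DMR were higher in MMS. Htr3b, a subunit of the 5-HT3 channel, had at chr9:48954446-48954803 in intron 2 a control mean of -0.17 and an MMS mean of 4.34, a difference of 4.51. Htr4, a Gs-coupled receptor, had at chr18:62407080-62407292 in intron 2 a control mean of -0.17 and an MMS mean of 4.16, a difference of 4.33. Both rest on sequence rich in repeats, 56.4% of the Htr3b region and 69.5% of the Htr4 region, and the latter had 20 copies elsewhere of up to 116 bp. Htr7, the Gs-coupled 5-HT7 receptor that is well expressed in hypothalamus, had at chr19:35962487-35963252 in intron 3 a control mean of 1.83 and an MMS mean of 4.39, a difference of 2.56 with 2 CpG sites. Htr1a and Htr1b, the main autoreceptors, held none, nor did Htr2c, whose 235 kb lie on chromosome X, 1475313 bp from the nearest DMR.

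The largest difference of the 28 DMRs was in Hrh2 (ENSMUSG00000034987.4), the Gs-coupled histamine H2 receptor. At chr13:54207782-54208875 control was at -0.17 and MMS at 5.38, or 0.889 and 41.6 normalised reads, a difference of 5.55. It was larger than that of 99.6% of the table's MMS-higher DMRs, and the MMS mean was the second highest of the receptor DMRs after Gabra4. The region was 1094 bp wide with 18 CpG sites and 55.7% repeat, and BLAST found 0 copies of at least 100 bp elsewhere. That search leaves out shorter copies and units repeated within the region, so it does not show that reads place uniquely there. The region lay 5679 bp upstream of the longest coding transcript and inside another coding transcript of the gene. Hrh1, Hrh3 and Hrh4 held none. The 5 dopamine receptor genes (0.154 Mb) and the 4 opioid receptor genes (0.341 Mb) held 0 DMRs, Oprm1 with its 280 kb included. These windows are short against the 6.14 DMRs per Mb of all protein-coding genes, and the counts of 0 set neither family apart.

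**Figure D3:**
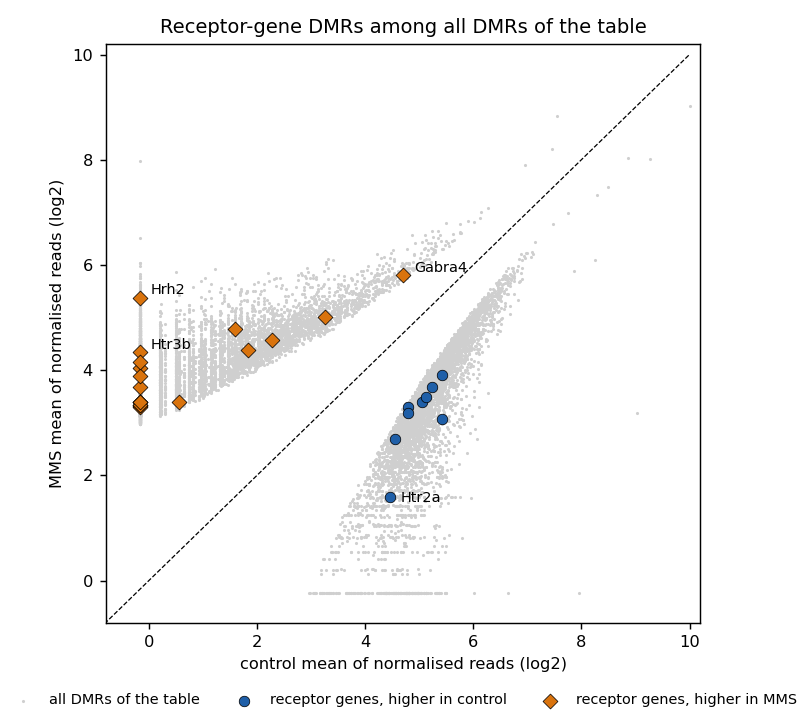
MMS mean against control mean of normalised reads, both log2, for all 12949 DMRs of the table (grey) and for the 28 in receptor genes, with circles for those higher in control and diamonds for those higher in MMS. The dashed line marks equal means. The column of diamonds at the left are the 13 DMRs with control at its lowest value, of which Hrh2 has the highest MMS mean (5.38).

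The 13 regions with control at its lowest value varied in their MMS level. Their MMS means ran from 3.30 to 5.38 with a median of 3.40. For the 3917 DMRs of the table higher in MMS with control at exactly -0.17, as in all 13, the lowest MMS mean was 2.97 and the median 3.77. Of these 3917, 22.8% had an MMS mean no higher than the median of the 13. The lowest of the 13 were in Gabrr1, Gabbr2 and Chrna9, and those of Glra1, Chrna3 and Htr2a were at the median. The regions of Hrh2, Htr3b, Htr4 and Gabbr2 in intron 16 were the 4 with an MMS mean above 4.

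By gene structure the receptor DMRs were mostly intronic, as DMRs in genes were in general. The centre lay in an intron of the longest coding transcript in 23 of 28 (82.1%, against 83.6% over all protein-coding genes), in an exon in 1 (Gabbr2) and outside that transcript in 4, namely both of Chrna9, the distal one of Adra1a and that of Hrh2. Coding sequence was touched by 3 (2 in Gabrr1 and 1 in Chrnb4) and a UTR by 2, and none of the 28 touched another protein-coding gene. Divided into 3 equal parts from the start of the gene, the gene bodies held 7 DMRs in the part nearest the start (4 higher in MMS and 3 in control), 10 in the middle (9 and 1) and 11 in the part nearest the end (6 and 5). Over all protein-coding genes the parts from start to end held 34.8%, 31.7% and 33.5% of the DMRs, with 63.7%, 62.2% and 60.2% of them higher in MMS, and the difference from the receptor genes was not tested. Both directions were found at the start and at the end of genes, and 1 of the 10 in the middle was higher in control, that of Htr2a. In width, the median was 396.5 bp, from 155 to 1648, against 544 bp in the table. The median CpG density was 1.47 per 100 bp against 1.32, the median GC content 46.9% against 47.4%, and the median repeat share 23.2% against 20.6%. More than 50% repeat was found in 5 regions (17.9%), against 17.4% of the table and 11.1% of the DMRs in protein-coding genes, where the median repeat share was 16.4%. All 5 were higher in MMS, as were 1519 of the 2259 such DMRs of the table.

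Short motifs of the response elements for known stress and activity-dependent transcription factors were searched on both strands in the 300 bp at the centre of each DMR. CACGTG, the E-box, was in 2 of 28 windows (7.14%, in Adra1a and Adra1d), against 5.58% of all DMRs. TGACG, part of the cAMP response element, was in 1 (3.57%, Gabbr2), against 11.6%. AGAACA, part of the glucocorticoid response element, was in 6 (21.4%, in Gabra4, Gabrr1, Gabrr3, Chrnb4, Adra1b and Htr4), against 24.6%. No test was made of these shares, in which 1 region is 3.57%, and none of them says whether a factor bound there.

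Over all protein-coding genes the share with a DMR was higher in each class of longer genes, whereas among receptor genes it was highest from 30 to 100 kb. No receptor gene under 10 kb held one (0 of 17, against 3.57% of protein-coding genes of that length). From 10 to 30 kb it was 4 of 29 (13.8%, against 13.2%), and from 30 to 100 kb 8 of 18 (44.4%, against 29.8%). From 100 to 300 kb it was 4 of 14 (28.6%, against 57.4%), and above 300 kb 2 of 5 (40.0%, against 79.9%). The share of receptor genes thus lay above that of protein-coding genes of like length from 30 to 100 kb and below it in both longer classes, on few genes in each. With a limit of 100 kb, chosen after the values were seen, 6 of 19 long receptor genes held one (31.6%, against 62.5%), and 6 of 16 on the autosomes (37.5%, against 64.9%). Under 100 kb it was 12 of 64 (18.75%, against 13.7%). The long genes without a DMR were mostly GABA-A and glycine subunits, among them Gabrg3 (671 kb, nearest DMR 222999 bp away), Gabrb1, Gabrb2, Gabra2, Gabra3, Gabra5, Glra2 and Glra3. Over the summed windows the receptor genes held 4.25 DMRs per Mb, against 6.14 for all protein-coding genes, and 4.78 against 6.40 on the autosomes. Chromosome X held few DMRs in general, 0.938 per Mb of its protein-coding gene windows and in 4.75% of its protein-coding genes, and 0 of the 6 receptor genes on it held one. No test of these shares was made, since genes in a cluster are not independent and the table holds no regions that were not called.

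**Figure D4:**
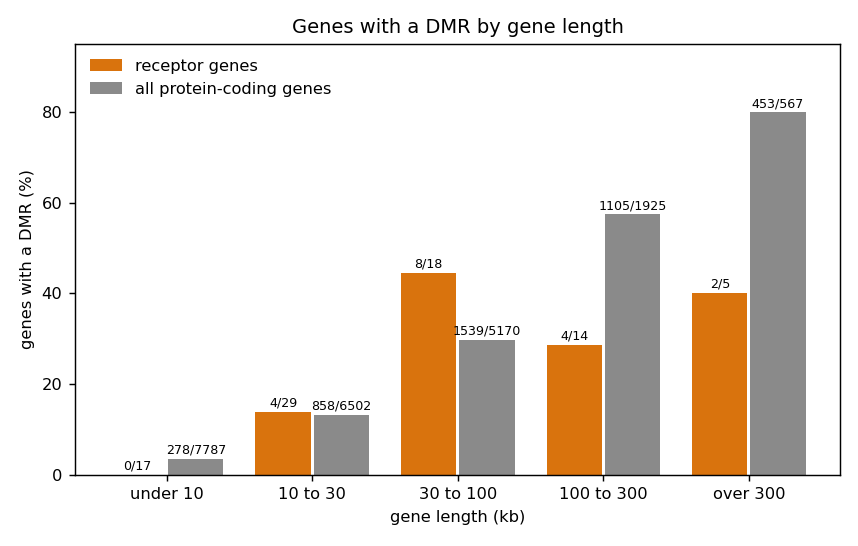
Percentage of genes with a DMR by gene length, for the receptor genes and for all protein-coding genes, with the number of genes with a DMR over all genes of the class above each bar. The receptor genes are above the protein-coding genes from 30 to 100 kb (44.4% against 29.8%) and below them in both longer classes.

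Channel subunits and G protein-coupled receptors held DMRs in like number. Among 42 ligand-gated channel subunits 9 held 13 DMRs, of which 10 were higher in MMS, and among 41 G protein-coupled receptors 9 held 15, of which 9 were higher in MMS. Both counts of genes were near the 19.3% of all protein-coding genes, and 62.6% of all DMRs of the table were higher in MMS. Their median gene lengths were 30.5 kb and 18.6 kb. More than 1 DMR was found in 6 receptor genes, and in 5 of them (Gabrr1, Gabrr3, Gabbr2, Adra1a and Htr2a) both directions occurred, Chrna9 being the exception. Of the 1330 protein-coding genes with at least 2 DMRs, 57.3% held both directions. A gene-wide direction could therefore not be given for most of these receptors. Of the 65 receptor genes without a DMR, the median distance to the nearest one was 89515 bp, and 4 had one within 10000 bp (Chrna4, Gabrb1, Gabrd and Chrm5, described above).

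Genes that make, transport or anchor these transmitters and receptors were taken from a list of 50, and 10 of them (20.0%) held 1 DMR each, 6 higher in MMS and 4 in control. These shares were near those of all protein-coding genes (19.3% with a DMR) and of all DMRs of the table (62.6% higher in MMS). The GABA and glycine system had 7 of 21 (33.3%, against 19.3% of protein-coding genes), and this difference was not tested. The values that follow are those of the single region in each gene and do not describe the gene as a whole. In gephyrin (Gphn), the scaffold that anchors glycine and GABA-A receptors, the region was at -0.17 in control and 3.25 in MMS. Lhfpl4, which brings GABA-A receptors to that scaffold, was at -0.17 and 3.33, and Nlgn2, the adhesion protein of inhibitory synapses, at 5.14 and 6.18. The regions in these 3 postsynaptic partners were thus higher in MMS, by 3.42, 3.50 and 1.04. The plasma membrane glycine transporter Slc6a5 was also higher in MMS, at 1.03 in control and 4.27 in MMS. Abat, which breaks down GABA, was at 4.50 in control and 2.48 in MMS, and Kctd16, an auxiliary subunit of the GABA-B receptor, at 4.80 and 3.35. The enzymes of GABA synthesis, Gad1 and Gad2, and the vesicular transporter Slc32a1 held none. Among 17 genes of the monoamines, the serotonin transporter Slc6a4 was at -0.17 in control and 3.66 in MMS, the vesicular transporter Slc18a1 at 5.84 and 4.56, and the plasma membrane monoamine transporter Slc29a4 at 3.78 and 0.82. The other monoamine transporters of the list, Slc6a2, Slc6a3 and Slc18a2, held none, nor did the enzymes Th, Tph2, Maoa and Hdc, and the share of 3 of 17 (17.6%) was near the 19.3% of all protein-coding genes. No DMR was found in the 8 acetylcholine genes or in the 4 opioid peptide genes, lists too short to set apart from the 19.3% of all protein-coding genes.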

How the data were processed

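Groups were taken from the sample titles, which give 3 control and 3 MMS meDIP libraries. Per the study's methods and the submitters' processing notes, the authors used mm10 for alignment, MACS2 (version 2.1, broad peaks over inputs, human genome size setting) for peak calls, HOMER (version 4.8) for annotation and DiffBind for the comparison. The values used are the authors' deposited log2 means of normalised reads over all libraries, the untreated column (read as control) and the treated column (read as MMS). The deposited columns of the authors' own comparison (a fold change, a p-value and an FDR) were not used. DMRs were joined to GENCODE vM21 genes, and a lowest group value was taken within 0.5 (log2) of the table's lowest. Places refer to the transcript with the longest coding sequence, chosen per gene. The GRCm38 genome gave GC content, CpG sites and repeats (soft-masked bases), and copies from BLAST 2.17.0 (at least 100 bp and 95% identity). Receptor symbols matched RefSeq in 83 of 83 cases. The overlap code was checked on simulated regions and against bedtools 2.31.1. Members, families, partner genes and motifs were chosen with earlier results of these data known, and all DMRs in receptor genes enter the counts. A few genes are not reported here by name. Alternatives were other gene windows and annotation, and limits on width, difference and level. Inputs and IgG were not analysed here. Their labels carry the same antibody as the meDIP libraries, which was not settled. The work used Python 3.11.15, pandas 2.3.3, numpy 2.4.6, scipy 1.17.1, pysam 0.24.0 and matplotlib 3.10.9.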

Additional observations from a re-analysis of the deposited data

How the results depend on the processing

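Of 73 alternatives, 61 left their result within 1.5 times the main count or within the 95% interval of its share or median, and 12 moved it. Keeping DMRs whose lower group was above its lowest value left 15 DMRs in 11 receptor genes, with 40.0% higher in MMS and a median difference of 2.43 in these, and 6 partner genes. A mean of at least 4 in the higher group left 18 receptor DMRs and 6 partner genes, and 44.4% of the MMS-higher DMRs then had control at its lowest value. A width of at least 300 bp left 18 receptor DMRs and 5 partner genes. A difference of at least 2 gave 89.5% higher in MMS and a median of -2.61 in DMRs higher in control. These shifts follow from leaving out regions by level, width or size. A window of 10000 bp on both sides gave 22 receptor genes with 33 DMRs, and RefSeq genes 19 with 29. Leaving out single libraries was not possible without values per library, and the share with control at its lowest value has no value where such regions are left out. No paired analysis was possible because the table holds group means and no result comes from a test. The 3 pools per group limit every difference, and the table does not give the depth of single libraries.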
